A study of Homo sapiens with 10 samples.

Results

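RXRA, HIPK2, IQSEC1, BAIAP2, PHF21B, SSBP3, MAP2K2 and ADCY3 are 8 of 19974 protein-coding genes whose bodies held many methylated DNA immunoprecipitation (MeDIP) peaks in the EV list of HEK293T cells and 0 to 2 in the WT list. They were chosen from these peak numbers, so the EV and WT numbers below describe the choice and are not a finding. Peaks were counted when they overlapped the gene body or the 2 kb on either side of it. In all, the 8 genes held 152 of 53919 peaks in K-KD, 130 of 59098 in K rep KO, 126 of 53396 in K non-rep KO, 222 of 87815 in EV and 4 of 30732 in WT.

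HEK293T is a human embryonic kidney cell line. MeDIP captures sonicated genomic DNA with an antibody against 5-methylcytosine, and sequenced fragments pile up where methylated cytosines are dense. The conditions were a knockdown of KCNQ1OT1_K (labelled KD, with a list named K-KD), K rep KO cells, the K non-rep KO cells, EV cells and WT cells, each with 1 immunoprecipitated and 1 input library. EV, K, rep and non-rep stand here as labelled, with no meaning given to them. Nothing in the labels says whether a knockout is 1 clone or a pool. With 1 list per condition no value has a replicate and no test across samples was possible. Intervals are 95% intervals for counting error only, and since neighbouring peaks are not independent they are too narrow.

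Cytosine methylation in mammals falls mainly on CG dinucleotides. Bodies of transcribed genes are commonly methylated, while promoters that are dense in CG are commonly free of methylation. Among the 8 genes, RXRA, HIPK2, SSBP3 and PHF21B encode nuclear proteins, whereas IQSEC1, BAIAP2, MAP2K2 and ADCY3 encode signalling proteins of the cytoplasm and membrane.

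The nuclear group is described first. RXRA, the retinoid X receptor that pairs with many other nuclear receptors on DNA (chromosome 9, 134326455 to 134440585), held 23 peaks in K-KD, 13 in K rep KO, 16 in K non-rep KO, 29 in EV and 0 in WT. A count of 0 has an exact Poisson upper limit of 3.69 peaks, but RXRA was chosen for its low WT number, so this limit tests nothing. HIPK2, a nuclear kinase that phosphorylates transcription regulators (chromosome 7, 139561570 to 139777998), held 10 in K-KD, 9 in K rep KO, 10 in K non-rep KO, 22 in EV and 0 in WT. It was the most sparsely covered of the 8, with 9.98 EV peaks per 100 kb. SSBP3, a single-stranded DNA-binding protein that works with LIM-domain cofactors (chromosome 1, 54225432 to 54413490), held 17 peaks in K-KD, 18 in K rep KO, 21 in K non-rep KO, 29 in EV and 1 in WT. PHF21B, a PHD finger protein (chromosome 22, 44881162 to 45010005), held 18 in K-KD, 17 in K rep KO, 11 in K non-rep KO, 21 in EV and 0 in WT. In each nuclear gene, as in each signalling gene below, EV held the most peaks, and the knockdown and knockout lists lay between EV and WT. The choice by many EV and few WT peaks favours this order, so nothing is read from it.

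Among the signalling genes, IQSEC1, an exchange factor for the small GTPase ARF6 (chromosome 3, 12897043 to 13283257), held 42 peaks in K-KD, 27 in K rep KO, 26 in K non-rep KO, 57 in EV and 2 in WT. At 386 kb it was the longest of the 8 genes. BAIAP2, an adaptor that bends membranes and links them to actin (chromosome 17, 81035151 to 81117434), held 23 in K-KD, 21 in K rep KO, 17 in K non-rep KO, 37 in EV and 1 in WT. Peaks covered 15.3% of its region in K-KD, 16.6% in K rep KO, 11.0% in K non-rep KO, 29.6% in EV and 0.876% in WT. MAP2K2, the kinase MEK2 of the MAPK cascade (chromosome 19, 4090321 to 4124122), held 8 peaks in K-KD, 13 in K rep KO, 13 in K non-rep KO, 14 in EV and 0 in WT. It was the shortest gene, at 33.8 kb, and the most fully covered in EV, at 33.3%. ADCY3, an adenylyl cyclase that makes cyclic AMP (chromosome 2, 24819169 to 24920237), held 11 in K-KD, 12 in K rep KO, 12 in K non-rep KO, 13 in EV and 0 in WT. MAP2K2 and ADCY3 differed least between the knockout lists and EV, by 1 peak each.

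**Figure D1:**
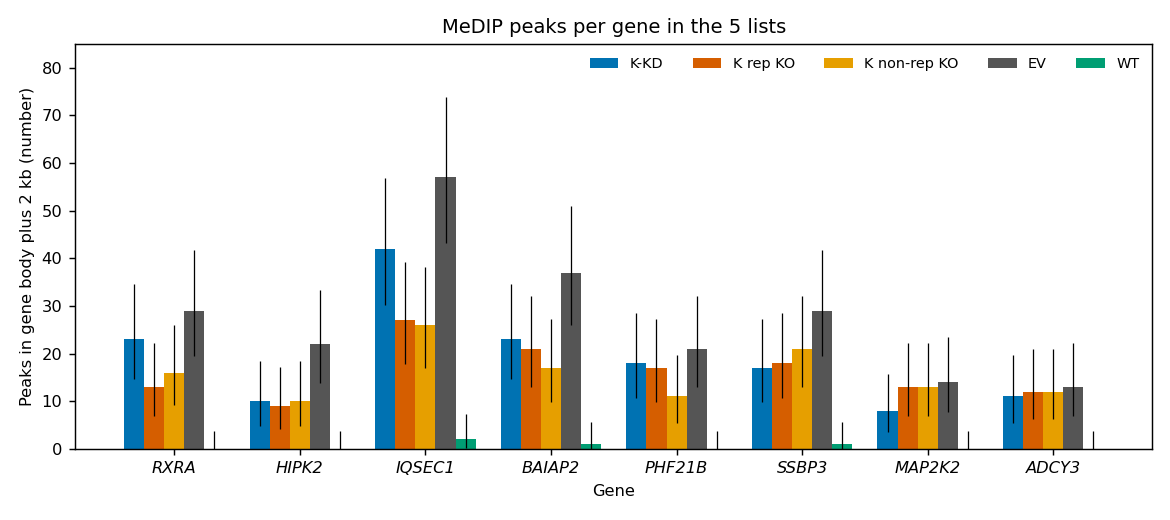
Number of MeDIP peaks (y axis) in the body plus 2 kb of each of the 8 genes (x axis) in the K-KD, K rep KO, K non-rep KO, EV and WT lists. Bars are the numbers and lines their exact 95% Poisson intervals. EV has the highest bar in all 8 genes, between 13 in ADCY3 and 57 in IQSEC1, and WT bars stand at 0 to 2. The genes were chosen for many EV and few WT peaks, which favours this order.

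Per length, the 8 genes held a median of 12.2 peaks per 100 kb in K-KD, 11.2 in K rep KO, 11.2 in K non-rep KO, 15.5 in EV and 0 in WT. Over all protein-coding genes the medians were 1.00 in K-KD, 1.19 in K rep KO, 0.981 in K non-rep KO, 3.60 in EV and 0 in WT. The 8 genes also stood above the median gene in the knockdown and knockout lists, which the choice did not use but which share many peaks with EV across the genome.

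At least 2-fold more peaks in EV than in WT, taken as (peaks + 1) in both lists, were found for 8 of 8 genes, beside 80.9% of the 1906 genes with at least 10 peaks in EV and WT together, and at least 2-fold fewer for 0 of 8, beside 0.105%. The choice itself used these lists. Of the protein-coding genes, 216 (1.08%) held at least 13 EV peaks, the lowest number of the 8, together with 0 to 2 WT peaks. They were 28.6% of the 756 genes with at least 13 EV peaks. At 13 EV peaks 44 genes met this, ADCY3 among them, and 63 genes had 12 EV peaks and 0 to 2 in WT. HDAC4, a histone deacetylase gene, held 74 EV and 2 WT peaks and GAK, a kinase of clathrin uncoating, 35 EV and 1 WT peak, and neither is one of the 8. Just outside on the WT side, with 3 WT peaks, PRDM16 held 47 EV peaks, KCNQ1 45 and COL5A1 40.

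Sequence at the gene starts was examined next. The RefSeq promoter table for GRCh38.p14 gave 14 windows, from 250 bases before to 50 after a start, for 6 of the 8 genes; HIPK2 and PHF21B were not matched. These 6 windows are shown since they are the most CG-dense start of RXRA, its CG-poor internal start, a start of each of the 3 genes whose windows met a peak, and the CG-dense start of ADCY3. They read 5′ to 3′ on the gene's strand, and capitals mark each CG dinucleotide.
RXRA first start, chr9:134326205-134326504, plus strand: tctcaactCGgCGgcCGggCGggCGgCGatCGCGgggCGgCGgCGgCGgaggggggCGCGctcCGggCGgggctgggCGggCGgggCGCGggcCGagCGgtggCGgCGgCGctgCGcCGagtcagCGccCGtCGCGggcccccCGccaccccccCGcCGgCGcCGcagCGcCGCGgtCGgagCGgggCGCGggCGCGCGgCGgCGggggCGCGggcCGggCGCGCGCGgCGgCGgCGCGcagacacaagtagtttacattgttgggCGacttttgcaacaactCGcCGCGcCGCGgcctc
RXRA internal start, chr9:134379045-134379344, plus strand: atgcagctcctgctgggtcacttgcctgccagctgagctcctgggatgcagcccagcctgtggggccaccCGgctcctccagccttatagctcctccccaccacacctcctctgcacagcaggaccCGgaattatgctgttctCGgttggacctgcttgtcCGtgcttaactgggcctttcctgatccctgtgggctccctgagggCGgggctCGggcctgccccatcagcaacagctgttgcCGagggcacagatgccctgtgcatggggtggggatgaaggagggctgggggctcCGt
IQSEC1 internal start, chr3:13073380-13073679, minus strand: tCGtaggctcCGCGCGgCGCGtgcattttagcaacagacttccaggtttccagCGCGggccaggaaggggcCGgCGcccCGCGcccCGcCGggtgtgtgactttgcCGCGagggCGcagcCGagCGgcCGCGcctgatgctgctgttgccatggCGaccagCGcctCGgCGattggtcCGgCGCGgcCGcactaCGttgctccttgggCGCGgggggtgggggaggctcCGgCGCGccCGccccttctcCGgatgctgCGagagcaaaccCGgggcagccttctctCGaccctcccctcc
BAIAP2 internal start, chr17:81083289-81083588, plus strand: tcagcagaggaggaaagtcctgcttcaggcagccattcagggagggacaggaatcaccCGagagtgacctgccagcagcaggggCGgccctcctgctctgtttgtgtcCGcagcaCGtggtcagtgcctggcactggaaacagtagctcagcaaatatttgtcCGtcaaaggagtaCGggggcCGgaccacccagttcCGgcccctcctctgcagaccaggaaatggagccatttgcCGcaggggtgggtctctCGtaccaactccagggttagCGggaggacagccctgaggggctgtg
MAP2K2 internal start, chr19:4103157-4103456, minus strand: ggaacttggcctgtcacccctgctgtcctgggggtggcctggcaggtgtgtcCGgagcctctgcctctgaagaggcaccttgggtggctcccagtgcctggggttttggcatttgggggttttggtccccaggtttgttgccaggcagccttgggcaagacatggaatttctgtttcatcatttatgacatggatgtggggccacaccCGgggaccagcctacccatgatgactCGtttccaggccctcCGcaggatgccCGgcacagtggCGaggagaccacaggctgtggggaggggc
ADCY3 outer start, chr2:24920188-24920487, minus strand: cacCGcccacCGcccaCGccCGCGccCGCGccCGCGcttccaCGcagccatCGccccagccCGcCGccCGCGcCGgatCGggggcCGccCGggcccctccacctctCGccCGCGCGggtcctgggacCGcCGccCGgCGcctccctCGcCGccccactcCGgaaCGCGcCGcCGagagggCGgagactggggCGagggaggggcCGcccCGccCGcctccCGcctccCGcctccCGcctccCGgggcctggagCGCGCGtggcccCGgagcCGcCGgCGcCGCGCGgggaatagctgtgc

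The RXRA first start carried 65 CG dinucleotides in 300 bases, a number reached by 0.0361% of the 22132 windows of protein-coding genes. No list had a peak on it, and the nearest lay 2199 bp away in K-KD, 11097 bp in K rep KO, 1760 bp in K non-rep KO, 4519 bp in EV and 44434 bp in WT. The internal RXRA start, with 8 CG, had no peak either, and its nearest EV peak lay 335 bp away. The outer ADCY3 start, with 53 CG, was also free of peaks, with the nearest EV peak at 8426 bp and the nearest K-KD peak at 949 bp.

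At IQSEC1 an EV peak (chr3:13073657-13074595, the authors' fold enrichment 4.57) covered 23 bases at the edge of the 40-CG window. In BAIAP2 an EV peak (chr17:81082848-81083765, fold 6.14) covered the whole window of an internal start with 11 CG and 191 bases of a neighbouring one with 8 CG. In MAP2K2 a K-KD peak (chr19:4102501-4103545, fold 4.71) covered the whole window of the internal start with 6 CG. No window of these genes had a peak in K rep KO, K non-rep KO or WT. Over all windows a peak was also rare, at 2.62% in K rep KO, 2.10% in K non-rep KO, 0.705% in WT, and 0 of 14 cannot be told from these shares.

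By window, 1 of 14 had a K-KD peak and 3 of 14 an EV peak, beside 2.70% (K-KD) and 4.39% (EV) of all windows. Of the 8 windows with at least 30 CG, 1 met an EV peak, and of the 6 with fewer, 2 did. Over all protein-coding genes 1.3% of windows with at least 30 CG and 5.65% of the others met an EV peak. At least 1 CG was present in 98.1% of all windows, and the median was 37 in the 14 windows against 21 in all. The windows of 1 gene share their surroundings, and with 14 of them no difference from the other genes can be read.

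**Figure D2:**
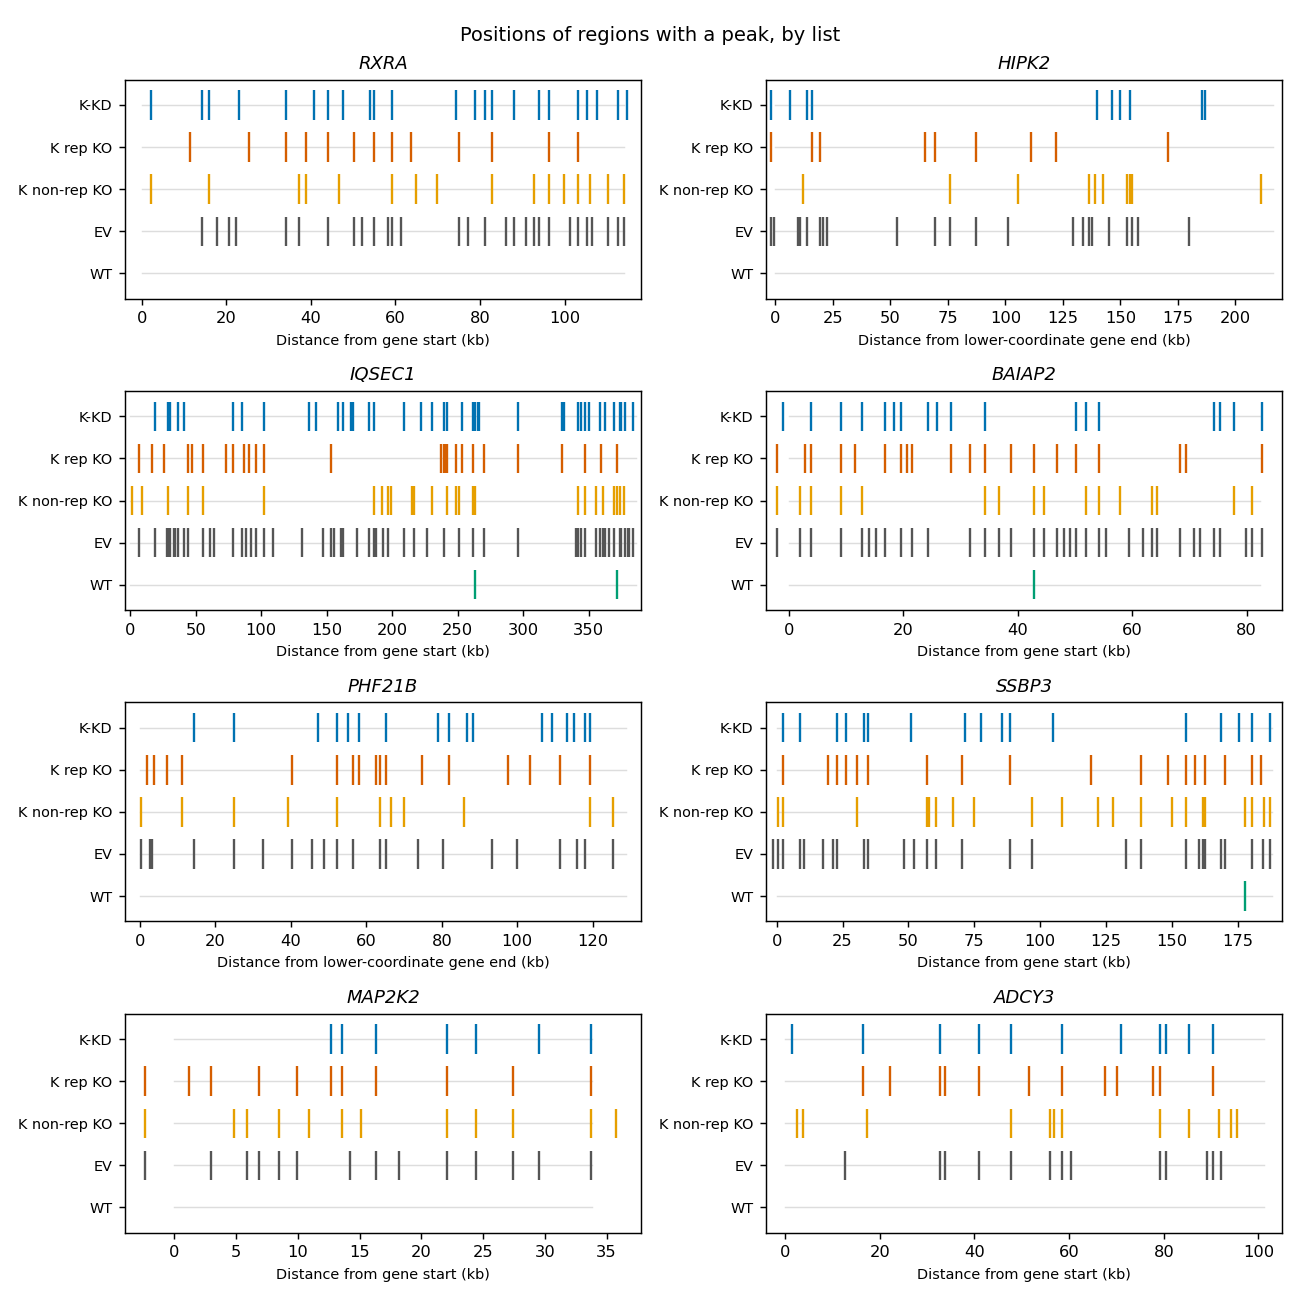
Midpoints of regions with a peak (ticks) in each list (rows) along each of the 8 genes, as distance in kb from the gene start, or from the lower-coordinate gene end for HIPK2 and PHF21B. Grey lines mark the gene body. Ticks lie in all parts of most genes in the knockdown, knockout and EV rows, with gaps such as that of K-KD in HIPK2 between 16.1 and 139.8 kb, while the WT rows hold 4 ticks in all, in IQSEC1, BAIAP2 and SSBP3.

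Within the 6 genes of known strand, peak summits were spread along the body. With each gene cut into 3 equal parts, the part next to the start held 26.9% of summits in K-KD, 37.6% in K rep KO, 26% in K non-rep KO and 33.7% in EV. The part farthest from the start held 36.1% in K-KD, 28.7% in K rep KO, 40% in K non-rep KO and 38.3% in EV. Over all 7181 protein-coding genes of 30 kb or more, the part next to the start held 33.4% and the farthest part 35.7% of EV summits. Of the 4 WT summits, 3 lay in the farthest part and 1 in the middle one.

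The knockdown of KCNQ1OT1_K was set against EV. K-KD had the lower number in all 8 genes, and so did each knockout when set against EV. The genes were chosen for many EV peaks, which favours lower numbers in the other lists, so nothing is read from this direction. Of all 19974 protein-coding genes, 9750 had a lower number in the knockdown, 2101 a higher one and 8123 an equal one. The total was 152 in K-KD and 222 in EV, a ratio of 0.685 (0.553 to 0.845), beside 0.583 over all protein-coding gene regions. The choice favours a total ratio below 1 as well. Ratios of single genes ran between 0.455 in HIPK2 and 0.857 in PHF21B. At least 2-fold fewer peaks in the knockdown were found for 1 of the 8 genes, HIPK2, beside 29.6% of the 2574 genes tested in this pair, and at least 2-fold more for 0 of 8, beside 0.272%. The relative ratio, the total's ratio divided by that over protein-coding genes, was 1.17 (0.95 to 1.45), and its interval included 1. Restricted to peaks whose −log10 q reached 5, that relative ratio was below 1, at 0.913, with 29 peaks in K-KD against 78 in EV. With each list cut to its 30732 strongest peaks, the 8 genes held 81 in K-KD against 66 in EV, so the direction of the plain ratio turned with the length of the lists. Over protein-coding genes the equal-length ratio was 0.960, and the relative ratio was 1.28, on the same side of 1 as 1.17.

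Both knockouts were set against WT, the condition in which these genes were chosen to be bare. K rep KO had the higher number in all 8 genes, with totals of 130 in K rep KO and 4 in WT. So did K non-rep KO, 126 peaks in K non-rep KO against 4 in WT. For K rep KO against WT, 7 of the 7 genes with at least 10 peaks were at least 2-fold higher, beside 59.3% of all such genes, and 0 of 7 at least 2-fold lower, beside 0.0883%. For K non-rep KO against WT these were 8 of 8, beside 52% of genes, and 0 of 8, beside 0.399%. Since WT numbers chose the genes and both comparisons share WT, nothing is read from these counts.

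Against EV, the knockouts held fewer peaks. K rep KO held 130 peaks and EV 222, a ratio of 0.586 (0.468 to 0.730) beside 0.625 over protein-coding genes. K non-rep KO held 126 and EV 222, a ratio of 0.568 (0.452 to 0.709) beside 0.567. At least 2-fold fewer peaks were found for 3 of 8 genes in K rep KO (IQSEC1, HIPK2 and RXRA; 23.9% of all genes) and for 3 of 8 in K non-rep KO (IQSEC1, HIPK2 and BAIAP2; 32.3%). At least 2-fold more were found for 0 of 8 in either knockout, beside 0.373% of genes in K rep KO and 0.118% in the other knockout. EV was used in the choice, and these comparisons share it with that of K-KD. With each list at 30732 peaks the totals were 56 in K rep KO, 70 in K non-rep KO and 66 in EV, so that the direction turned in K non-rep KO.

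The 208 other genes with at least 13 EV and 0 to 2 WT peaks held 0.535 times the EV number in K-KD (0.506 to 0.567), 0.527 times in K rep KO (0.498 to 0.558) and 0.442 times in K non-rep KO (0.416 to 0.469). The 8 genes held 0.685 times in K-KD, 0.586 times in K rep KO and 0.568 times in K non-rep KO. Intervals of the 8 genes and the others overlapped in all 3 comparisons, and the difference was not tested.

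The comparison that used neither EV nor WT set K rep KO beside the K non-rep KO list. The totals were 130 in K rep KO against 126 in K non-rep KO, a ratio of 1.03 (0.801 to 1.33), beside 1.10 over protein-coding genes. In K rep KO, 3 genes held more, 3 fewer and MAP2K2 and ADCY3 the same number. PHF21B held 17 in K rep KO against 11 in K non-rep KO, the largest ratio at 1.55, and RXRA held 13 in K rep KO against 16 in K non-rep KO, the smallest at 0.812. None of the 8 genes differed at least 2-fold in either direction, where 8.06% of the 1749 genes were at least 2-fold higher and 2.97% at least 2-fold lower in K rep KO. With fold enrichment of 4 or more the totals were 68 in K rep KO against 82 in K non-rep KO, which turns the direction, as lists of equal length do.

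Equal numbers do not mean equal positions. Merging overlapping peaks of the 5 lists gave 369 distinct regions in the 8 genes. Peaks were merged in chains, so peaks of a region need not all overlap each other. Of these, 203 had a peak in 1 list, 103 in 2, 44 in 3 and 19 in 4, and no region had one in all 5. EV alone held 80 regions, K-KD alone 45, K rep KO alone 38 and K non-rep KO alone 40. In all, 150 regions had no EV peak. Both knockouts had peaks in 37 common regions, 28 of them with an EV peak as well.

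There were 18 regions with a peak in the knockdown, in both knockouts and in EV and none in WT, in 7 of the 8 genes. HIPK2 had none. The highest fold among them in EV and in each knockout, but not in K-KD, was in the last part of SSBP3 at chr1:54232614-54233411, where the authors' fold enrichment was 4.84 in K-KD, 8.64 in K rep KO, 7.67 in K non-rep KO and 11.1 in EV. Its −log10 q of 26.6 in EV was the highest of any EV peak in the 8 genes. A single WT peak of SSBP3, at chr1:54235327-54236246 with fold 4.68, lay near it and overlapped a K non-rep KO peak alone. In MAP2K2 the region chr19:4100565-4103545, which takes in the internal start shown above, had folds of 4.71 in K-KD, 8.27 in K rep KO, 7.04 in K non-rep KO and 4.14 in EV. BAIAP2 had 4 such regions, the most extended being chr17:81067511-81071314 with 4 peaks in K-KD, 2 in K rep KO, 2 in K non-rep KO and 1 in EV. RXRA, IQSEC1 and SSBP3 had 3 each, MAP2K2 and ADCY3 had 2 each and PHF21B had 1. Fold values belong to their own list and set no order between lists.

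Of the 222 EV peaks of the 8 genes, 36.9% (30.9 to 43.5) overlapped a K-KD peak, 32.0% (26.2 to 38.4) a K rep KO peak and 29.3% (23.7 to 35.6) a K non-rep KO peak. Over EV peaks in all protein-coding genes these shares were 32.6% with K-KD, 35.8% with K rep KO and 32.3% with K non-rep KO, inside the intervals of the 8 genes. In WT, 2 of 222 (0.901%) were shared, beside 18.6% over protein-coding genes. These were a BAIAP2 peak and a MAP2K2 peak that reached past the edge of its gene region. HIPK2 had the lowest share of EV peaks seen in the knockdown or either knockout, with 9 of 22, and MAP2K2 the highest, with 12 of 14.

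Stronger EV peaks were shared more often over all protein-coding genes. There, 19.9% of EV peaks with −log10 q below 3 and 45.4% of those at 5 or more were shared with K-KD. In the 8 genes the share was 37.3% (26.7 to 49.3) for peaks below 3 and 43.6% (33.1 to 54.6) for those at 5 or more. For weak peaks the interval of the 8 genes lay above the value over all genes in K-KD, and included it in K rep KO (25.4%, 16.5 to 36.9, beside 22.2%) and in K non-rep KO (28.4%, 19.0 to 40.1, beside 19.3%). For EV peaks at 5 or more, the share with K rep KO was 37.2% (27.3 to 48.3), with 50% over all genes lying above this interval. With K non-rep KO it was 39.7% (29.6 to 50.8), an interval that includes the 46.6% over all genes.

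**Figure D3:**
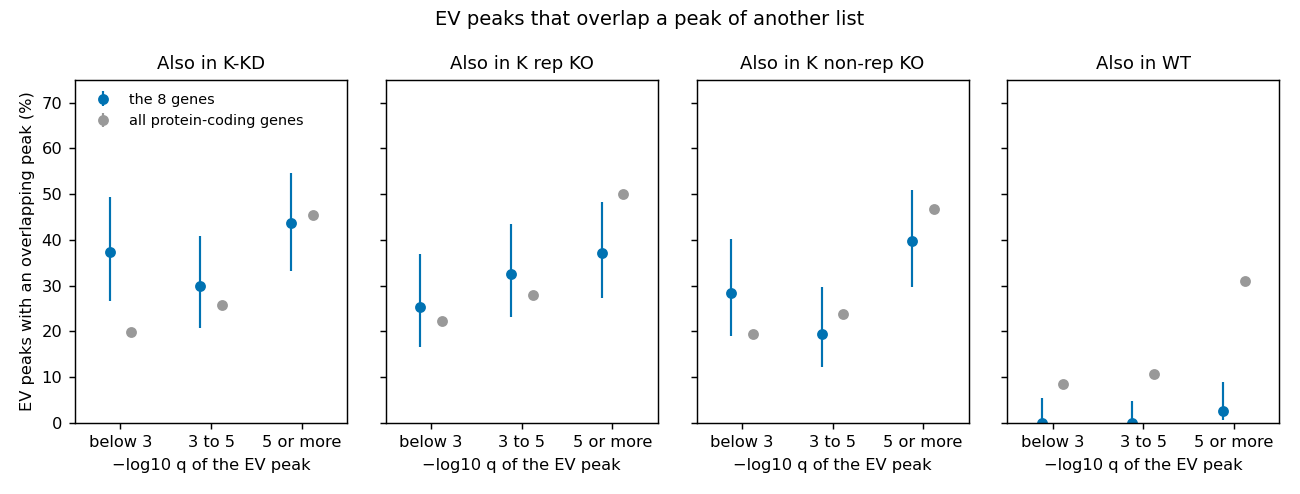
Percent of EV peaks that overlap a peak of K-KD, K rep KO, K non-rep KO or WT (panels), by the −log10 q of the EV peak (x axis), for the 8 genes and for all protein-coding genes. Points are shares and lines their 95% Wilson intervals. In the WT panel the shares of the 8 genes stay at 0 to 2.56%, while those over all genes rise to 30.9%. The 8 genes were chosen for low WT numbers, which keeps their shares in this panel low.

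Sharing between the knockouts was lower in these genes than over all protein-coding genes, which was not tested. Lower sharing was not confined to this pair. Of K-KD peaks 26.3% (20.0 to 33.8) overlapped a K non-rep KO peak, beside 38.3% over protein-coding genes, and 34.9% a K rep KO peak, beside 42.0%. Of K non-rep KO peaks 31.0% overlapped a K-KD peak, beside 39.1%. K rep KO peaks went the other way, with 41.5% overlapping a K-KD peak, beside 39.0%. The choice by low WT numbers also left few knockout peaks that overlapped a WT peak. In K rep KO these were 2.31% in the 8 genes and 25.9% over protein-coding genes. In K non-rep KO they were 3.17% in the 8 genes and 27.7% over protein-coding genes. The part of this choice in the lower sharing and in peak strength was not tested. Of the K rep KO peaks 28.5% (21.4 to 36.7) overlapped a K non-rep KO peak, beside 40.2% over protein-coding genes. Of the K non-rep KO peaks 28.6% (21.4 to 37.0) overlapped a K rep KO peak, beside 44.2%. Fewer of the peaks were strong, too, since 26.9% of K rep KO peaks in the 8 genes had −log10 q of 5 or more, beside 37.4% in protein-coding genes, and for K non-rep KO the shares were 23% in the 8 genes and 31.9% in protein-coding genes. Within K rep KO peaks of 5 or more the share was 37.1% (23.2 to 53.7) beside 58.2%, within those of 3 to 5 it was 25% beside 32.3%, and within those below 3 it was 25.6% beside 25.9%. Within K non-rep KO peaks of 5 or more the share was 44.8% (28.4 to 62.5) beside 66.6%, within those of 3 to 5 it was 27.7% beside 37.3%, and within those below 3 it was 15.6% beside 30.1%.

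EV peaks in the 8 genes did not stand out by strength within their list. Their median fold enrichment was 3.99, beside 4.32 over EV peaks in protein-coding genes, and 35.1% beside 42.2% had −log10 q of 5 or more. Solving fold and −log10 p for whole reads gave a median of 13 fragments at the summit, between 6 and 35, beside 12 over all EV peaks. The lowest pileup called at the genome-wide background was 6 fragments in EV and 6 in WT. The depth of immunoprecipitated fragments in WT was 0.885 of that in EV. The caller's local background at the summits had a median of 2.32 fragments in the 8 genes and 1.99 over all EV peaks. The part of depth and background in the low WT numbers was not tested.

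The 4 WT peaks were 508 to 920 bp wide, with folds of 3.05 to 4.82. All 4 overlapped a K non-rep KO peak, 2 a K rep KO peak, 1 a K-KD peak and 1 an EV peak. The WT peak shared with EV was in BAIAP2, at chr17:81077835-81078590, and both knockouts had peaks there too.

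Peaks beside the genes set the WT numbers in context. The 100 kb on both sides of the 8 gene regions held 163 peaks in K-KD, 147 in K rep KO, 143 in K non-rep KO, 240 in EV and 67 in WT. Per 100 kb this made 15 EV and 4.19 WT peaks beside the genes, and 17.3 EV and 0.312 WT peaks inside them. In the flanks EV held 3.58 times the WT number (2.72 to 4.77), beside 3.78 over protein-coding genes. The gene regions had been chosen for their low WT number, and the flanks had not.

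**Figure D4:**
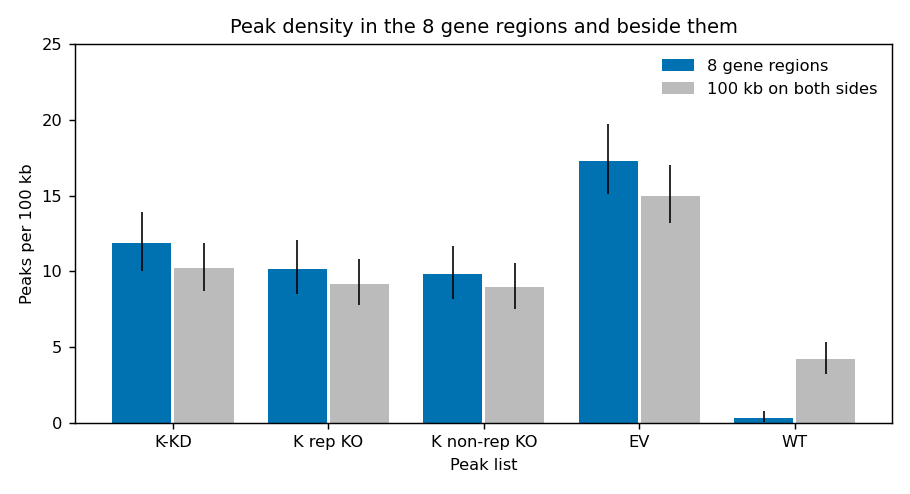
Peaks per 100 kb (y axis) in the 8 gene regions and in the 100 kb on both sides, for each list (x axis). Bars are the numbers over 1283 kb of gene regions and 1600 kb of flanks, and lines are exact 95% Poisson intervals. WT stands at 0.312 inside and 4.19 beside the genes, while in the other lists the paired bars differ by less than 3 peaks per 100 kb.

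The nearest WT peaks lay close to some genes and far from others. Around MAP2K2 they lay 5.65 kb and 0.585 kb from the gene region, and 20 WT peaks fell in its flanks. Around BAIAP2 they lay 2.07 kb and 0.424 kb away. By contrast, the stretch between the WT peaks on either side of HIPK2 was 323 kb long and held 27 EV peaks and no WT peak. That around PHF21B was 216 kb with 28 EV peaks, and that around RXRA 183 kb with 37.

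Neighbouring genes mostly held fewer peaks, counted per gene region and not per length. Most were also shorter than the member beside them. WDR5, for example, is 24.8 kb long and held 7 EV peaks, while RXRA is 114 kb long and held 29. No difference in peak density can be read from these numbers. AATK, a kinase gene that overlaps the end of BAIAP2, held 17 peaks in K-KD, 17 in K rep KO, 5 in K non-rep KO, 19 in EV and 2 in WT. COL5A1, a collagen gene next to RXRA, held 18 in K-KD, 23 in K rep KO, 18 in K non-rep KO, 40 in EV and 3 in WT. TBXAS1, thromboxane synthase, which begins 0.244 kb from HIPK2, held 9 in K-KD, 4 in K rep KO, 2 in K non-rep KO, 11 in EV and 1 in WT. CREB3L3, beside MAP2K2, held 2 in EV and 3 in WT, and RPL32, the nearest gene on the lower side of IQSEC1, had no peak in any list. Because AATK, TBXAS1, CENPO and MRPL37 reach into member regions, some peaks are counted in both genes. An uncharacterised long noncoding RNA gene, LOC105376956, overlaps IQSEC1 and held 12 in K-KD, 4 in K rep KO, 8 in K non-rep KO, 19 in EV and 1 in WT in its body, and MeDIP reads cannot be assigned to one gene or the other.

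Paralogs of the 8 genes mostly held fewer EV peaks than the 8, which were chosen for high EV numbers. The 26 paralogs held 87 peaks in K-KD, 74 in K rep KO, 67 in K non-rep KO, 133 in EV and 31 in WT, with a median of 4 per gene in EV and 1 in WT. Over all protein-coding genes the medians were 1 in EV and 0 in WT, below those of the paralogs. ADCY9, another adenylyl cyclase gene, held 20 in K-KD, 14 in K rep KO, 16 in K non-rep KO, 31 in EV and 2 in WT, the only paralog with at least 13 EV and 0 to 2 WT peaks. BAIAP2L1, a paralog of BAIAP2, held 8 in K-KD, 9 in K rep KO, 7 in K non-rep KO, 23 in EV and 3 in WT. MAP2K1, which encodes MEK1 and acts beside MAP2K2, held 7 in K-KD, 3 in K rep KO, 6 in K non-rep KO, 4 in EV and 3 in WT, and RXRB none in any list. In K-KD 14 paralogs held fewer peaks than in EV, 6 more and 6 the same number. Of all protein-coding genes 9750 held fewer, 2101 more and 8123 the same number.

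Among 12 nuclear receptors that pair with RXRA, all held more peaks in EV than in WT, with totals of 38 in K-KD, 33 in K rep KO, 35 in K non-rep KO, 65 in EV and 8 in WT. PPARA, which controls fatty acid oxidation, held 7 in K-KD, 10 in K rep KO, 14 in K non-rep KO, 17 in EV and 2 in WT. PPARD, another fatty acid receptor, held 9 in K-KD, 7 in K rep KO, 3 in K non-rep KO, 13 in EV and 1 in WT. Some differences were small, with 4 EV and 3 WT peaks in VDR and 1 EV and 0 WT peaks in NR1H4. Of all 19974 protein-coding genes, 12091 held more peaks in EV than in WT, 578 fewer and 7305 the same number. Nothing particular to the receptors is read from their direction. These numbers are per gene region and not per length.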

How the data were processed

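MeDIP libraries and inputs of 5 HEK293T conditions were made by the submitters. The tools named, per the submitters' processing notes, were Bowtie2, MACS2 and deepTools, and the build GRCh38. Their versions, settings and any pooling were not given in the sources used. The authors deposited 1 peak list per condition with a fold enrichment (a ratio at the summit), −log10 p and −log10 q, and a score; these were used only within a list. K-KD peaks stand for the sample labelled KD. Both knockout lists hold peak names with another prefix, so their conditions rest on the list names. There was 1 further list whose name matched no sample, and it was not used. Peaks elsewhere than on chromosomes 1 to 22 and X, 3.56% to 5.83% per list, were left out.

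Peaks were counted by at least 1 bp of overlap with RefSeq genes (GRCh38.p14) plus 2 kb. Totals over protein-coding genes count each peak once. Ratios carry exact Clopper-Pearson, numbers exact Poisson and shares Wilson 95% intervals. Summit fragments were solved from fold and −log10 p, as (pileup + 1)/(background + 1) and an upper Poisson tail, within 0.001, for 99.8% to 99.9% of peaks per list. IP depth relative to EV, from the commonest background divided by the shortest peak width (which stood for the fragment length), was 0.943 in K-KD, 0.899 in K rep KO, 0.750 in K non-rep KO while WT stood at 0.885. Read totals are not in these lists, so depth is known only in this relative form. Python 3.11.15, pandas 2.3.3 and scipy 1.17.1 were used, and the counting was tested on simulated data. The 8 genes, the paralog list and the receptor list were chosen with earlier results of these data known. The genes named are the 8 members, their listed relatives and neighbours, and genes at the edges of the choice; GAK, HDAC4, MAP2K1, RXRB and LOC105376956 were named after their values were seen.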

Additional observations from a re-analysis of the deposited data

Results flagged for a closer look

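The ratios of the 8 genes lay below 1 for the knockdown and above 1 for both knockouts, each against the condition it was paired with. K-KD held 0.685 times the EV number, beside 0.583 over protein-coding genes. K rep KO held 32.5 times the WT number, beside 2.37, and K non-rep KO 31.5 times, beside 2.14. The knockout ratios rest on the 4 WT peaks by which the genes were chosen, so nothing is read from their size. The knockdown ratio rests on EV numbers that were also used in the choice. With 1 list per condition, the difference between these ratios was not tested. With lists of equal length the knockdown ratio was 1.23, on the same side of 1 as the knockouts, beside 0.960 over protein-coding genes. Against EV the knockout ratios were 0.586 for K rep KO and 0.568 for K non-rep KO, and with lists of equal length 0.848 for K rep KO and 1.06 for K non-rep KO. Equal-length ratios over protein-coding genes were 0.916 for K rep KO and 0.952 for K non-rep KO.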

How the results depend on the processing

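Relative ratios and shares of EV peaks were recomputed under 76 alternatives, of which 68 stayed within the 95% interval of the reported value. Only the relative ratios against WT had intervals that excluded 1. They kept their direction, but low WT numbers chose the genes, so nothing is read from this. Other relative ratios crossed 1, among them K-KD to EV, whose reported value was 1.17. Plain ratios turned as well. With lists of equal length K-KD to EV was 1.23 against the reported 0.685, and K non-rep KO to EV 1.06 against 0.568. Over protein-coding genes the equal-length ratios to EV were 0.960 for K-KD and 0.952 for K non-rep KO. Keeping peaks whose −log10 q reached 5, K-KD to EV had a relative ratio of 0.913, and among EV peaks of that strength 43.6% were shared with K-KD and 39.7% with K non-rep KO. With fold enrichment of 4 or more, the relative ratio of K rep KO to K non-rep KO was 0.725 and that of K non-rep KO to EV 1.31. With an overlap of 50% of the shorter peak, 24.3% of EV peaks were shared with K rep KO. With lists of equal length, 22.7% of EV peaks were shared with K-KD and 22.7% with K rep KO. The cause of these shifts was not tested.

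The relative ratios against WT rest on 4 WT peaks. With 10 kb in place of 2 kb around the genes, WT held 9 peaks and the relative ratios were 7.06 in K rep KO, 7.43 in K non-rep KO and 7.42 in EV, where the reported values were 13.7 in K rep KO, 14.7 in K non-rep KO and 14.7 in EV. Without IQSEC1 WT held 2 peaks and they were 21.8 in K rep KO, 23.3 in K non-rep KO and 21.8 in EV. With −log10 q of 5 or more they were 8.42 in K rep KO, 9.04 in K non-rep KO and 10.4 in EV. Of 80 values per gene and list, 33 moved outside their Poisson interval, all of them with −log10 q of 5 or more, where fewer peaks are kept by construction. No paired analysis was possible because each condition has 1 list.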
